A study of Mus musculus with 3 samples.

Results

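The loci of 4 zinc-finger transcription factor genes, Gata4, Gata6, Klf4 and Klf5, were examined for SOX2 chromatin immunoprecipitation (ChIP) peaks in glands of the mouse gastric antrum, the distal part of the stomach. Each locus was a fixed window on the mouse build mm9 that bears the gene's name. The windows were chr14:63717000-63990000 for Gata4, chr18:10952000-11186000 for Gata6, chr4:55440000-55646000 for Klf4 and chr14:99597000-99813000 for Klf5. Every peak that overlapped a window by at least 1 bp was a member, which gave 23 of the 7213 wild-type peaks and 4 of the 887 knockout peaks. The windows span 273 kb, 234 kb, 206 kb and 216 kb, or 929 kb together.

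All mice had a mixed C57BL/6 x 129 background and carried loxP-flanked Sox2 alleles, and all received tamoxifen at 8 weeks of age, with stomachs taken 2 weeks later. The knockout (Rosa26CreER; Sox2 fl/fl) also carried a tamoxifen-inducible Cre recombinase at Rosa26, a locus active in most cell types, and where Sox2 was deleted was not measured here. The wild type (Rosa26WT; Sox2fl/fl) had no Cre, and therefore does not control for Cre activity. There was 1 ChIP library per genotype, and the labels do not give the number of animals behind it. The read depth is unknown, and a wild-type input library was not analysed here. Peak lists hold no expression values, so neither the loss of Sox2 nor the makeup of the glands could be checked.

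SOX2 is a high-mobility-group factor that binds the minor groove of DNA and marks the developing foregut and the stomach epithelium. GATA4 and GATA6 are GATA-binding factors of endoderm development and of the epithelium of stomach and intestine. KLF4 and KLF5 are Krüppel-like factors of gut epithelia, where KLF4 is known for differentiating cells and KLF5 for proliferating cells. In the RefSeq gene order of GRCm38.p6, Gata4 lies between Neil2 and Blk, Gata6 between Mib1 and Rbbp8, Klf4 between Rad23b and Actl7b, and Klf5 between Pibf1 and Klf12. Gene positions on mm9 were not used here. Peaks are therefore placed by their distance from the window's centre or edges, and none is assigned to a promoter, exon or intron.

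The Gata4 and Klf5 windows were rich in wild-type SOX2 peaks, with 10 and 7, while the Gata6 window held 4 and the Klf4 window 2. Knockout peaks were called in the Gata4 window (3) and the Klf5 window (1), and none was called in the Gata6 and Klf4 windows. All 4 knockout peaks overlapped a wild-type peak, as did 66.7% of the whole knockout list. Of the 23 wild-type peaks, 4 overlapped a knockout peak (17.4%) and 19 did not. Over the whole wild-type list only 8.15% overlapped one, so a wild-type peak without a knockout partner was the usual case. With 1 library per genotype there is no replicate error and no test between genotypes. The intervals below are exact 95% intervals that cover counting error only, and peaks are not replicates. Intervals on counts also take peaks as independent of each other. Autosomal stretches as long as the Gata4 window held 0.813 wild-type peaks on average, yet 62.0% held none and the fullest held 15. Peaks were thus unevenly spread, and the intervals on counts may be too narrow.

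**Figure D1:**
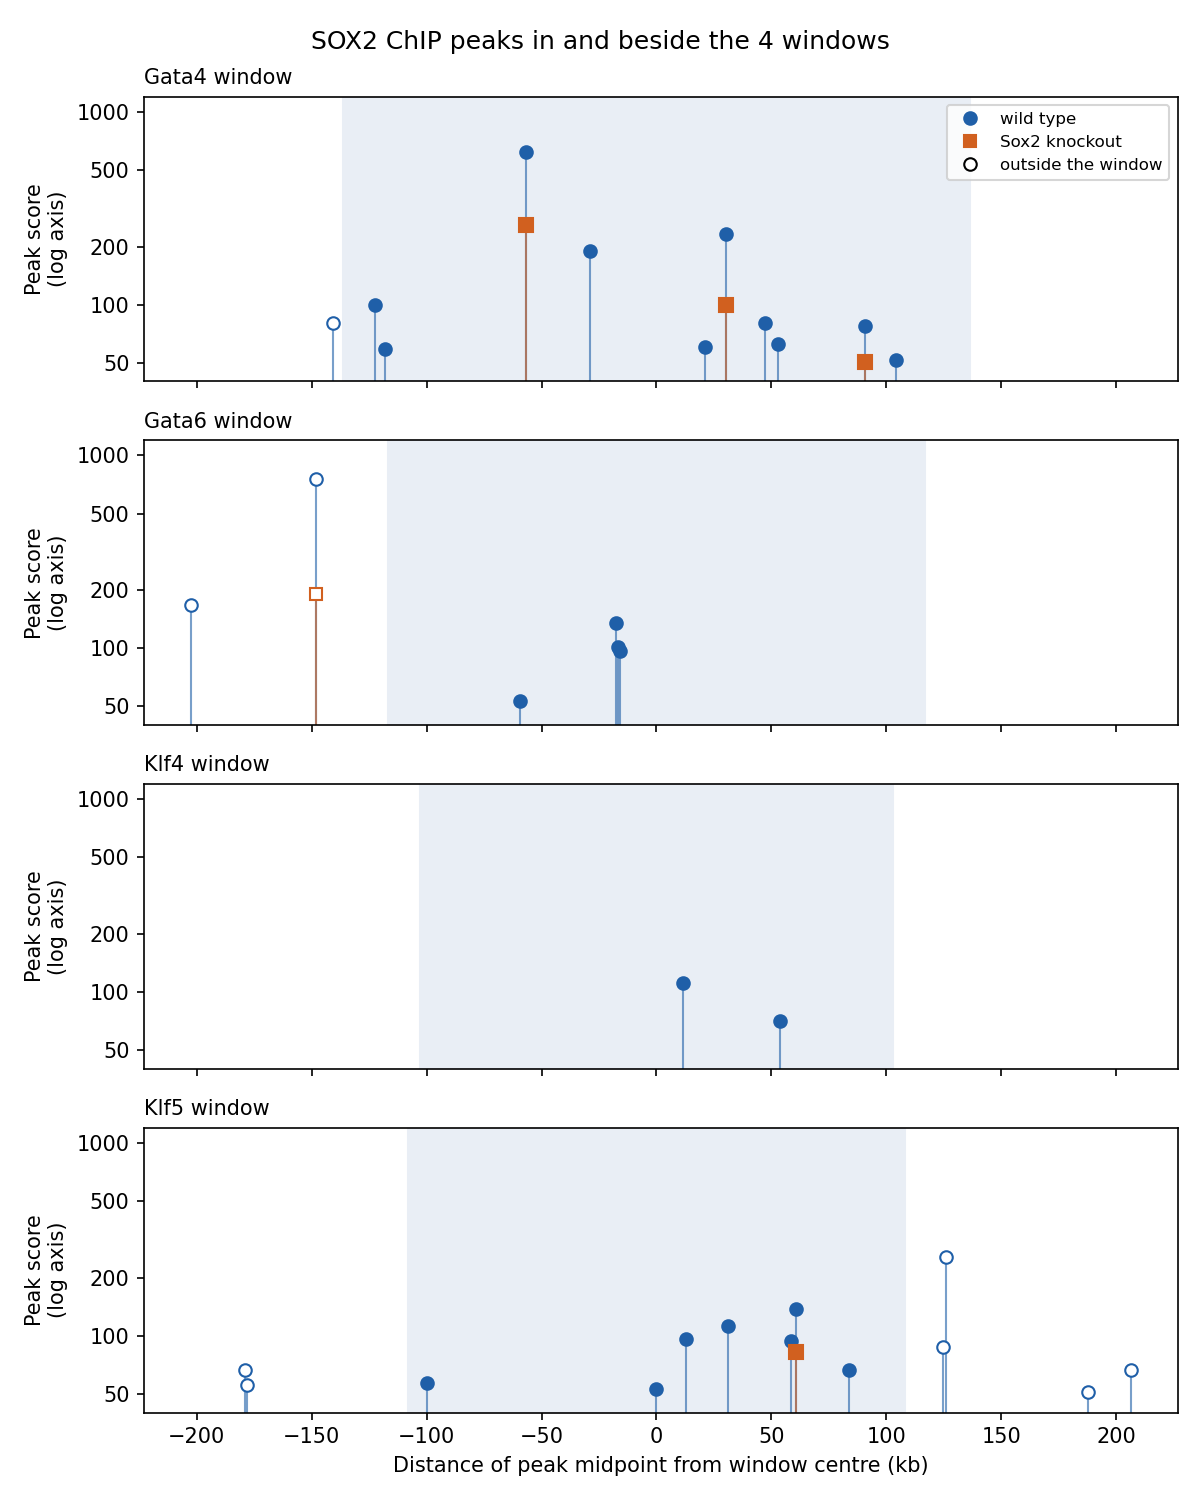
Score of each SOX2 ChIP peak (log axis) against the distance of its midpoint from the window centre in kb, for the 4 windows (shaded) and 100 kb on each side; blue circles are wild-type peaks, orange squares are knockout peaks and open symbols lie outside the window. The Gata4 window holds the highest member score, 618.15, and a peak with a score of 759.65 lies outside the Gata6 window.

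The score is the value that the authors' peak caller gave to each peak. Its scale is not named in the sources used here, so it serves only to rank peaks within a list. Wild-type scores begin at 50 and knockout scores at 50.02, and signal weaker than this is not listed. The 23 wild-type members had a median score of 93.46, against 82.62 for the whole list, and their median width was 334 bp, against 320 bp. Of the 23, 9 scored 100 or more (39.1%, Clopper-Pearson interval 19.7 to 61.5), as did 38.8% of the whole list. The share of members at or above this score was thus close to that of the list at large.

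Gata4 encodes a GATA factor of the endoderm and the glandular stomach. Its window held 10 wild-type peaks (interval 4.80 to 18.4), or 36.6 per Mb (17.6 to 67.4), where autosomes as a whole had 2.99 per Mb and chromosome 14 had 2.51 (2.23 to 2.81). Scores ran from 51.76 to 618.15, and 4 of the 10 reached 100.

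The strongest peak at Gata4 was chr14:63796658-63797166, 509 bp wide, with a score of 618.15. It ranked 71 of 7213 in the wild-type list, within the top 0.984%, and lay 56.6 kb before the window centre. The knockout list held a peak at the same place, chr14:63796734-63797113, with a score of 259.12. That peak ranked 12 of 887, within the top 1.35% of its list, and all of its 380 bp fell inside the wild-type peak. The site was therefore near the top of both lists.

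The next peak by score, chr14:63883567-63884048, scored 233.79 and ranked 648 in the wild type. Its knockout partner, chr14:63883571-63883976, scored 99.21 and ranked 140, and its 406 bp lay wholly inside the wild-type peak. A further pair was weak in both lists. The wild-type peak chr14:63944203-63944529 scored 77.5 (rank 3915), and the knockout peak chr14:63944194-63944390 scored 50.55 (rank 876 of 887). This knockout score is close to the lowest in its list, and 28 knockout peaks scored under 51.

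The remaining 7 wild-type peaks at Gata4 had no overlapping knockout peak. The strongest of them, chr14:63824159-63824730, was the widest of all members at 572 bp, scored 189.31 and ranked 971. It stood 27.0 kb from the nearest knockout peak. The peak chr14:63730567-63731001 scored 100.07, and chr14:63900634-63900943 scored 80.47. The other 4 were near the lower end of the list: chr14:63906181-63906446 scored 62.53, chr14:63874392-63874601 scored 60.22, chr14:63735350-63735600 scored 58.83 and chr14:63957507-63957717 scored 51.76. A wild-type peak of this height seldom had a listed partner anywhere in the genome, as the shares by score given further on show.

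The peaks at Gata4 were spread along the window instead of forming a single cluster. Gaps between neighbours ran from 4.35 kb to 61.1 kb. The widest gap separated the pair at the start of the window from the strongest peak. Just outside, a wild-type peak at chr14:63712342-63712856 with a score of 80.5 lay 4.14 kb before the window, and the first one past its far edge, chr14:64162708-64163117 with a score of 155.61, was 173 kb away. The nearest knockout peak before the window was chr14:58550701-58550894, 5170 kb away with a score of 51.12. The nearest one after it was chr14:66673756-66673952, 2680 kb away with a score of 51.68. Knockout peaks were sparse on chromosome 14, at 0.356 per Mb (0.255 to 0.482), so distances of this order are not particular to Gata4.

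Gata6 encodes the related GATA factor. Its window held 4 wild-type peaks (interval 1.09 to 10.2), or 17.1 per Mb (4.66 to 43.8), beside 3.25 per Mb (2.87 to 3.67) on chromosome 18. No knockout peak was called. A count of 0 allows up to 3 peaks, or 12.8 per Mb, by a limit of 3 counts. The exact interval is wider and ends at 3.69 peaks, or 15.8 per Mb.

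The Gata6 peaks were arranged differently from those at Gata4, since 3 of the 4 lay side by side. The first of the run, chr18:11051287-11051680, scored 136.18 and ranked 1728. It was followed after 580 bp by chr18:11052261-11052600 with a score of 101.54 (rank 2737). After a further 260 bp came chr18:11052861-11053301, with a score of 97.28 (rank 2893). The run began 17.5 kb before the window centre, measured to the midpoint of its first peak. Runs of at least 3 wild-type peaks with gaps under 1 kb held 48 of 7213 wild-type peaks (0.665%) and numbered 14 in all. This measure of spacing was chosen after the run had been seen. The remaining peak, chr18:11009366-11009539, was the narrowest member at 174 bp and scored 53.4.

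The strongest site near Gata6 was outside the window. The wild-type peak chr18:10920450-10921109, 30.9 kb before the window's start, scored 759.65 and ranked 38 of 7213. Its knockout partner, chr18:10920685-10921042, scored 191.66 and ranked 29 of 887. Within the window, the members were 88.3 kb to 132 kb away from this nearest knockout peak. Both the absence of a knockout peak and the highest wild-type score at Gata6 therefore depend on where the window ends. Past the far edge, the first wild-type peak, chr18:11508720-11508964, was 323 kb away with a score of 66.52, and the first knockout peak, chr18:18406182-18406362, was 7220 kb away with a score of 59.31.

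Klf5 encodes the Krüppel-like factor of proliferating gut epithelium. Its window held 7 wild-type peaks (interval 2.81 to 14.4), or 32.4 per Mb (13.0 to 66.8), with scores from 53.26 to 137.42. The strongest, chr14:99765649-99766091, scored 137.42 and ranked 1704 in the wild type. It was the one with a knockout partner, chr14:99765624-99765911, which scored 82.21 and ranked 223 of 887, with 263 bp shared. The median score at Klf5 was 93.46, and every Klf5 peak scored below the 3 highest at Gata4.

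Of the other Klf5 peaks, chr14:99735946-99736310 scored 112.97 and had no knockout peak within 29.3 kb. The peak chr14:99763272-99763644, only 2.00 kb before the shared one, scored 93.46 and was not matched in the knockout list. The peak chr14:99717517-99717836 scored 96.54. The last 3 were weak: chr14:99788500-99788730 scored 66.43, chr14:99605077-99605327 scored 56.93 and chr14:99704666-99704943, 0.2 kb from the window centre, scored 53.26. From the peak at the window centre onward, 6 of the 7 followed each other with gaps of 2.00 kb to 27.0 kb, and the other was 99.3 kb before them.

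Peaks continued past the far edge of the Klf5 window. The first outside, chr14:99829600-99829981, was 16.6 kb away and scored 87.76. The next, chr14:99830835-99831282, was 17.8 kb away, scored 256.47 and ranked 536, above every peak inside the window. Before the window, the nearest wild-type peak, chr14:99526598-99526808, was 70.2 kb away and scored 55.28. The nearest knockout peaks outside were chr14:77217224-77217448, 22400 kb before with a score of 56.55, and chr14:100045528-100045971, 233 kb after with a score of 142.52.

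Klf4 encodes the Krüppel-like factor of differentiating gut epithelium. Its window held 2 wild-type peaks (interval 0.242 to 7.22), or 9.71 per Mb (1.18 to 35.1), beside 2.96 per Mb (2.69 to 3.24) on chromosome 4. The peak chr4:55554293-55554674, 11.5 kb after the window centre, scored 111.12 and ranked 2390. The peak chr4:55596485-55596818, 53.7 kb after the centre, scored 70.74 and ranked 4399. No knockout peak was called, which allows up to 14.6 per Mb by the limit of 3 counts and 17.9 by the exact interval. The nearest knockout peak was 344 kb from a member. Before the window, the nearest wild-type peak was chr4:55285155-55285391, 155 kb away with a score of 68.04. After it, the nearest was chr4:55915611-55916177, 270 kb away with a score of 176.86. The nearest knockout peaks were chr4:48636294-48636494, 6800 kb before with a score of 55.31, and chr4:55940366-55940557, 294 kb after with a score of 51.5.

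Each window was set beside all autosomal stretches of its own length, laid end to end between the outermost peaks of each chromosome and called tiles here. At least 10 wild-type peaks were found in 14 of 8735 tiles as long as the Gata4 window (0.16%), and 62.0% of those tiles held none. For Klf5, 48 of 11040 tiles (0.435%) had at least 7. For Gata6, 454 of 10192 tiles (4.45%) had at least 4, and for Klf4, 1757 of 11576 (15.2%) had at least 2. The median tile held 0 wild-type peaks at each length. The counts at Gata4 and Klf5 were thus reached by few tiles, whereas a count like that at Klf4 was common. For Klf5 the small share depended on weak peaks. With scores of at least 100 in windows and tiles, 4.99% of tiles held at least the 2 peaks left at Klf5, beside 0.71% for the 4 left at Gata4 and 5.61% for the 2 left at Gata6. With 50 kb trimmed from each end, the Klf5 window kept 3 of its 7 peaks and the Gata4 window 6 of its 10. A shorter window can only hold as many peaks or fewer, and no tile share was computed for trimmed windows. Tiles take every position alike, gene-poor stretches included, and the shares are a description with no test. The loci and windows were also chosen with earlier results of these data known, so the shares do not measure how rare such loci are.

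**Figure D2:**
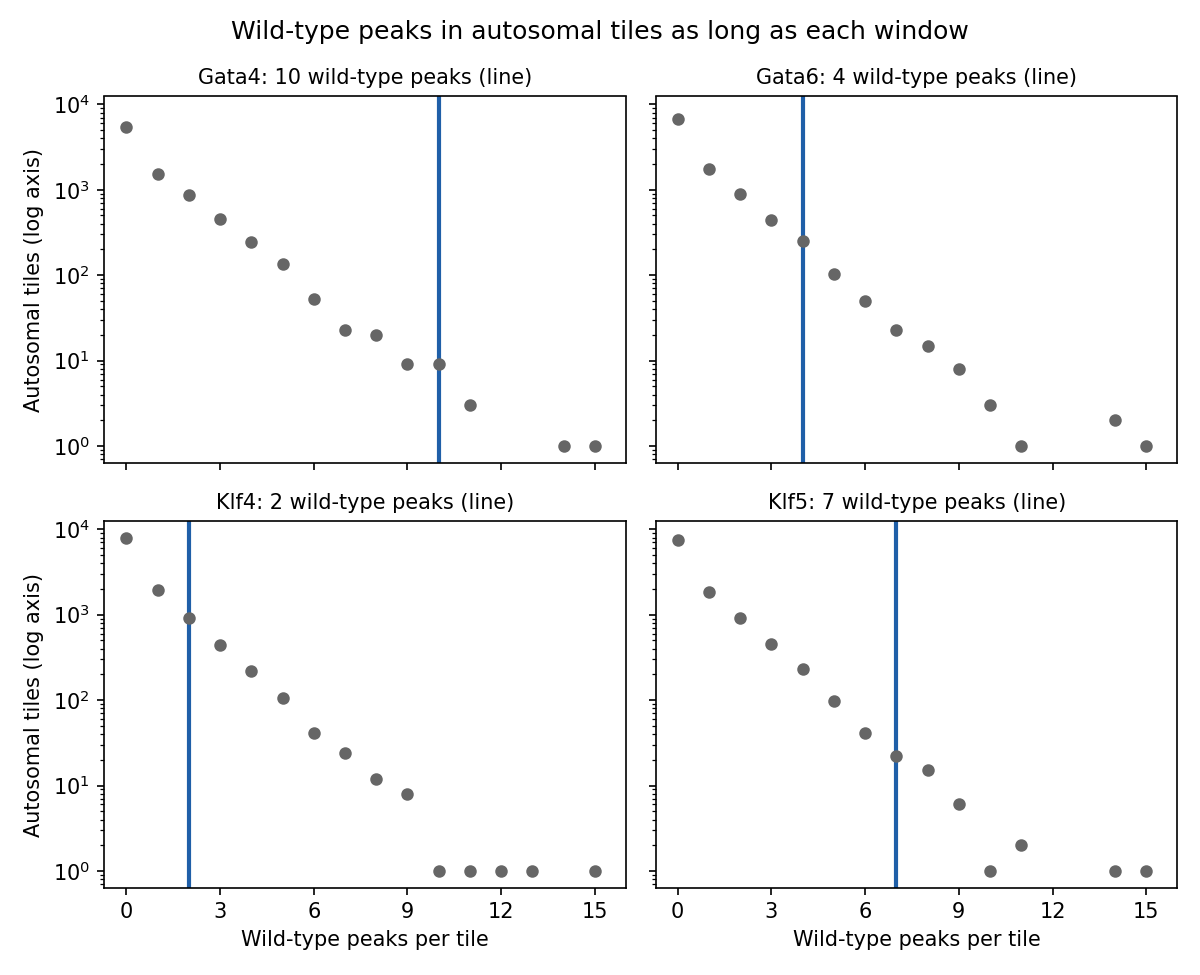
Number of autosomal tiles (log axis) against the number of wild-type peaks in a tile, for tiles as long as each of the 4 windows; grey points are tile counts and the blue line marks the window's own number. The line lies at a count that few tiles reach for Gata4 (10 peaks) and Klf5 (7 peaks), and within the bulk of the occupied tiles for Klf4 (2 peaks).

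The height of the strongest wild-type peak gave another order of the loci. A peak scoring at least as high as the best one of the window was found in 0.801% of tiles for Gata4, 12.2% for Klf5, 13.3% for Gata6 and 15.4% for Klf4. By this measure the Gata4 share was the smallest of the 4, but the order rests on the window edges. With 100 kb added at each end, the highest wild-type score became 759.65 at Gata6 and 256.47 at Klf5, while it stayed at 618.15 at Gata4 and 111.12 at Klf4.

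In the knockout list, at least 3 peaks were found in 0.229% of tiles as long as the Gata4 window, and a peak scoring at least 259.12 in 0.137%. At least 10 wild-type together with at least 3 knockout peaks occurred in 4 of 8735 tiles (0.0458%), on chromosomes 9, 11, 12 and 16. In that order of chromosomes, the 4 tiles held 12, 13, 9 and 3 knockout peaks, so only the chromosome 16 tile matched the 3 at Gata4. On chromosomes 9 and 11 those tiles held wild-type peaks as wide as 3329 bp and 8246 bp. On chromosomes 12 and 16 the widest wild-type peaks were 931 bp and 722 bp. At Gata4 no peak was wider than 572 bp. At least 1 knockout peak was found in 6.75% of tiles as long as the Klf5 window, and one scoring at least 82.21 in 1.76%. Tiles without any knockout peak made up 92.7% at the length of the Gata6 window and 93.5% at that of the Klf4 window, so an empty knockout window was the usual case.

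Across the 4 windows, 4 of 23 wild-type peaks overlapped a knockout peak (17.4%, Clopper-Pearson interval 4.95 to 38.8). Over the whole wild-type list 8.15% did, which is inside that interval. From the other side, all 4 knockout members overlapped a wild-type peak, as did 66.7% of the whole knockout list. Among the 23, the shared peaks scored from 77.5 to 618.15 and the unshared ones from 51.76 to 189.31, so the ranges overlapped.

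How often a wild-type peak had a knockout partner differed with its score, and the members are read against peaks of like score. Over the whole list it was 1.48% for scores from 50 to below 75, and none of the 9 members there had a partner. It was 2.34% from 75 to below 100, where 1 of 5 members had one, the weak Gata4 pair. It was 6.00% from 100 to below 150, where 1 of 6 did, the Klf5 pair, and 18.0% from 150 to below 300, where 1 of 2 did. At scores of 600 and over it was 93.3% (85.1 to 97.8), and the strongest Gata4 peak is among the 70 of 75 with a partner. The absence of knockout peaks at Gata6 and Klf4, whose scores ended at 136.18 and 111.12, was thus the common outcome for peaks of that height. Unequal depth of the libraries and loss of SOX2 cannot be told apart here, and knockout signal below the lowest listed score could be present at any unmatched site.

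**Figure D3:**
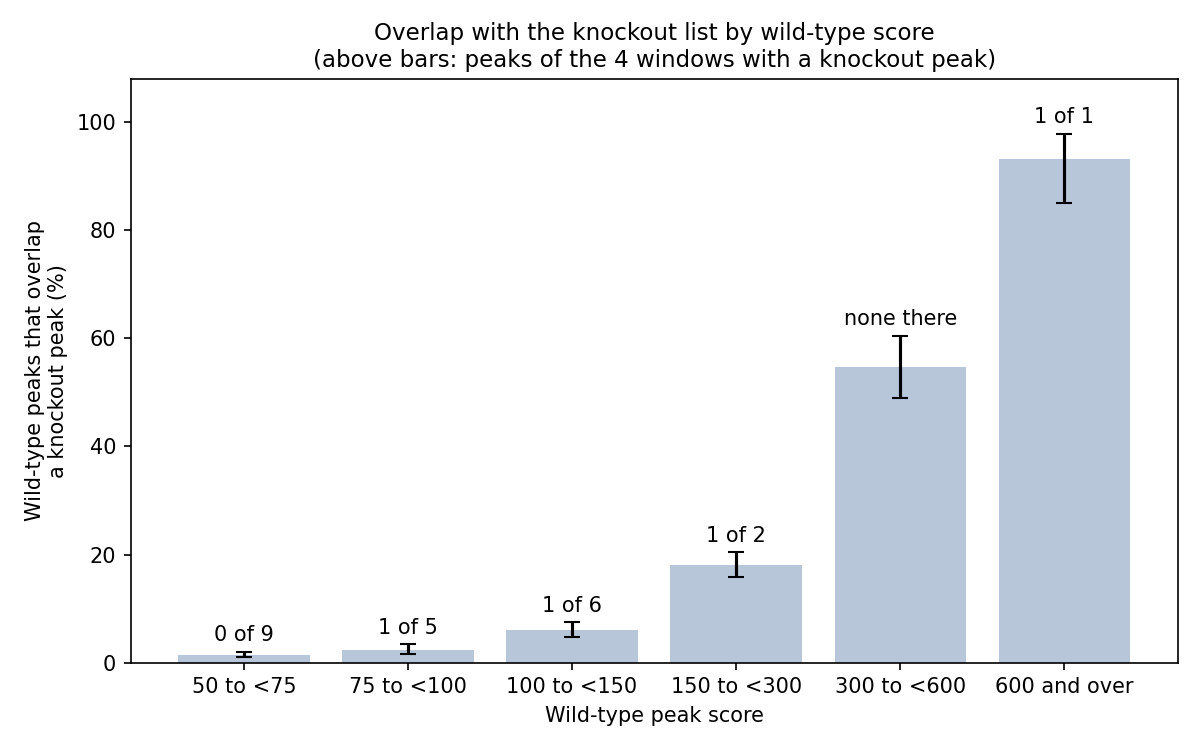
Percentage of all wild-type peaks that overlap a knockout peak, by wild-type score; bars are shares over the whole list, error bars are Clopper-Pearson 95% intervals, and the text above each bar counts the members of the 4 windows with a knockout peak. The share rises from 1.48% in the lowest band to 93.3% in the highest.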

How the data were processed

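SOX2 ChIP-seq peak lists of 1 wild-type and 1 Sox2 knockout library were used. Glands were cross-linked in 1% formaldehyde for 10 min, per the labels' protocols. Bowtie2, MACS and the build mm9 are named in the submitters' processing notes. Which versions and settings were used, and which control library entered peak calling, is not given in the sources used here. Per the labels, 1 list belongs to each library. The deposited lists give each peak's position and a score, called separately for each library. Read depth is unknown, so scores and numbers of peaks were not tested between genotypes.

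Positions are 1-based. Overlap needed at least 1 bp. Counts have exact Poisson intervals, shares have Clopper-Pearson intervals, and a count of 0 has a limit of 3 counts. All tiles of equal length on the 19 autosomes stand in for random windows. All peaks of the windows are named, with the nearest peak of each list before and after each window. Tile and overlap counts were tested on simulated data against bedtools 2.31.1. Computations used Python 3.11.15 with SciPy 1.17.1, pandas 2.3.3, NumPy 2.4.6 and, for the plots, matplotlib 3.10.9.

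The loci, windows and measures were chosen with earlier results of these data known. A planned list of other stomach regulator genes was not computed, because an annotation of mm9 was not used here. Peak sequences were not used, because they need the mm9 genome sequence, which was not used here either. Alternatives were the score limit, the window's edges, the overlap rule and the tiles.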

Additional observations from a re-analysis of the deposited data

How the results depend on the processing

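Of 56 alternatives over 17 values, 27 left a count within 1.5 times, a tile share within its counting interval or a highest score as it was, and 29 moved the value. With scores of at least 100, the windows of Gata4, Gata6, Klf4 and Klf5 held 4, 2, 1 and 2 wild-type peaks, the Gata4 window 1 knockout peak and the Klf5 window 0, and the tile shares were 0.71%, 5.61%, 17.4% and 4.99%. The Klf5 window was thus less apart among strong peaks. Trimming 50 kb from each end left 6 wild-type peaks at Gata4, 1 at Klf4 and 3 at Klf5, with 0 knockout peaks and a highest wild-type score of 112.97 at Klf5. Adding 100 kb to each end gave 13 wild-type peaks and a highest score of 256.47 at Klf5, and 1 knockout peak and a highest wild-type score of 759.65 at Gata6. Tiles shifted by 50% of their length gave a share of 0.0688% for Gata4, so that share rests on few tiles. Tiles of the same chromosome gave 0.474% for Gata4, 5.43% for Gata6 and 0.938% for Klf5. Tiles with at least 1 wild-type peak gave 0.422%, 12.8%, 47.5% and 1.32% for Gata4, Gata6, Klf4 and Klf5. The number of wild-type members with a knockout partner was 1 with scores of at least 100 in both lists, and 2 among the top 887 wild-type peaks, an alternative chosen after seeing the data. It was 4 where each peak had to cover at least 50% of the other, and 4 where a knockout peak within 1 kb sufficed. Fewer peaks, shorter or longer windows and fewer tiles follow from how these alternatives are built. No replicate could be left out. No paired analysis was possible because each genotype has 1 library and no test was made.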

Other observations

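The peak-rich stretch at Klf5 went on beyond the window. Of the 14 tiles with at least 10 wild-type peaks, at the length of the Gata4 window, 1 began 17.7 kb past the end of the Klf5 window. It held 11 wild-type peaks, the strongest with a score of 553.49, and a single knockout peak, which scored 142.52. In the RefSeq gene order of GRCm38.p6, Klf12, another Krüppel-like factor gene, follows Klf5, and the peaks were not assigned to either gene. In the 100 kb before the Gata6 window there was a further wild-type peak, chr18:10866130-10866696, with a score of 167.76 and no knockout partner. With 100 kb added at each end, the 4 windows together held 32 wild-type peaks.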
